A study of Homo sapiens with 3 samples.

Results

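This account covers the TSS-distal ETS1 peaks that lie in top typical enhancers (TEs) of SCC25 cells. A peak was taken when its midpoint lay more than 1500 bp from every annotated transcription start site (TSS), and when at least 1 bp of it overlapped a TE of rank 966 to 1900 and no super-enhancer (SE) of rank 1 to 965. The ranks are those of the H3K27Ac enhancer catalogue of the same cells, with rank 1 for the strongest stitched enhancer. The rule gave 1125 peaks, which are called members below, out of 26970 peaks in the list, 26958 on chromosomes 1 to 22 and X and 12980 that were TSS-distal. They were set beside the 2910 TSS-distal peaks in SEs, the 8945 TSS-distal peaks in neither class, and the 1015 peaks of the same TEs with a midpoint within 1500 bp of a TSS (TSS-near peaks). TEs ranked lower than 1900 were not used here, so some of the 8945 other peaks can lie in weaker enhancers.

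ETS1 is the founding member of the ETS family of transcription factors, which bind DNA through a winged helix-turn-helix domain that reads a GGAA core. It acts downstream of RAS and ERK signalling and often binds beside AP-1 or RUNX proteins, and in squamous carcinoma it is known for its part in invasion and epithelial to mesenchymal transition (EMT). Enhancers are regulatory stretches away from promoters that carry acetylated histone H3 lysine 27 (H3K27Ac) when active. SEs are the stitched stretches with the most of this mark, and TEs are all the others. The stretches ranked here were not limited to places away from promoters. TSS-near ETS1 peaks alone lay in 368 of the 935 TEs, and both TSS-near and TSS-distal ones in 327.

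SCC25 is an established line of human tongue squamous carcinoma cells, and the cells were untreated. ETS1 ChIP-Seq was done in 3 samples, 2 with the C20 antibody (Santa Cruz) and 1 with the 501A antibody (Bethyl Labs), both polyclonal. The authors deposited 1 consensus list of peak positions for all 3 samples, without a summit, a score, a read count or a value per sample, and the study's methods give a range of reads over the samples and no depth for a single one. No spread between replicates could therefore be computed. The interval given after a share is a 95% Wilson interval and that after a difference between shares a 95% Newcombe interval, and both cover the counting of peaks or enhancers only. Shares were compared with two-sided Fisher's exact tests, with Benjamini-Hochberg adjusted p-values within each family of tests. Peaks of 1 enhancer share their surroundings and are not independent, so these p-values are too small where an enhancer holds several.

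The sequences below show how ETS and AP-1 motifs lay in the 600 bp windows at the midpoints of members. The first 6 are all members whose nearest gene is on the lists of regulators described later and where an ETS core (AGGAAA or AGGAAG on either strand) had an AP-1 motif (TGAGTCA or TGACTCA) within 30 bp. The other pair are the narrowest members with an ETS core, in which the bound stretch is placed most closely. Each run is 120 bases of the plus strand of hg19, read 5′ to 3′, and the capitals mark every ETS core and AP-1 motif in it.
JUN, intergenic, TE of rank 1371, chr1:59349075-59349194: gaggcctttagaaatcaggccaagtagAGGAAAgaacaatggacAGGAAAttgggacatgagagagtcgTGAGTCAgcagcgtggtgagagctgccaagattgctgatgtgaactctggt
JUN, intergenic, TE of rank 1371, chr1:59347321-59347440: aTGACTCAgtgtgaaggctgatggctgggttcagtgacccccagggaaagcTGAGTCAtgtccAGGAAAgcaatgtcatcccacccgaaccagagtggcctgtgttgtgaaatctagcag
ETV6, first intron of ETV6, TE of rank 1341, chr12:11872825-11872944: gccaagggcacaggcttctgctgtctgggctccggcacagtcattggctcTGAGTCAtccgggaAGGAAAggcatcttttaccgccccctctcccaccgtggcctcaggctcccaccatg
FOXC1, later intron of GMDS, TE of rank 1387, chr6:1637569-1637688: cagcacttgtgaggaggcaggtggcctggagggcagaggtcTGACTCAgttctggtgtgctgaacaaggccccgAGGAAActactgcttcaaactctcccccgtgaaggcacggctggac
CSF2, intergenic, TE of rank 1182, chr5:131430500-131430619: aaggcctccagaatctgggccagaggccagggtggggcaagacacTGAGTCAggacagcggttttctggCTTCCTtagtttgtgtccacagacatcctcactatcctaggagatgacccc
KLF4, intergenic, TE of rank 1819, chr9:110512473-110512592: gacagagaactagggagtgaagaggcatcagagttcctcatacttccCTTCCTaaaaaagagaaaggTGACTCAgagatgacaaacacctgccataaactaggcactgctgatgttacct
PALMD, first intron of PALMD, TE of rank 1687, chr1:100113865-100113984: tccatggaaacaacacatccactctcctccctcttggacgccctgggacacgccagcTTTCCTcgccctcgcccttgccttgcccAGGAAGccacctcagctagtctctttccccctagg
FTO, first intron of FTO, TE of rank 1318, chr16:53778491-53778610: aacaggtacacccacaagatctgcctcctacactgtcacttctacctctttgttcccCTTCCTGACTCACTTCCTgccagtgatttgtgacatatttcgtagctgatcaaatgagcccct
In the members near JUN, ETV6, FOXC1, CSF2 and KLF4 the gap between the ETS core and the AP-1 motif of the closest pair was 5 to 26 bp. The AP-1 motif of the KLF4 sequence lies in the window but just beyond the end of the peak. In the FTO member, which was only 266 bp wide, the AP-1 motif shared a base with 1 ETS core and abutted another. The PALMD member, at 238 bp the narrowest of all, held ETS cores and no AP-1 motif.

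TEs carried TSS-distal ETS1 binding less often than SEs, while most enhancers of both classes, the TEs being those of rank 966 to 1900, held some ETS1 peak. At least 1 TSS-distal peak lay in 516 of 935 TEs (55.2%, 52.0 to 58.3%) and in 785 of 965 SEs (81.3%, 78.8 to 83.7%). The difference was −26.2 percentage points (−30.1 to −22.1; Fisher's exact test, adjusted p = 1.07e-34). Any ETS1 peak, TSS-near ones included, lay in 884 TEs (94.5%) and 949 SEs (98.3%), a difference of −3.80 points (−5.56 to −2.16; Fisher's exact test, adjusted p = 1.26e-05). The call for any peak held in 6 of 7 alternatives (−9.05 to −3.80 points, highest adjusted exact p = 0.0553). TEs were shorter, with a median of 28.8 kb against 63.1 kb, and among enhancers of 10 to 30 kb the difference in TSS-distal occupancy was −13.8 points (51.6% against 65.4%; Fisher's exact test, adjusted p = 0.0307). Counted per length over all enhancers of a class, TEs held 0.360 TSS-distal peaks per 10 kb and SEs 0.418.

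By rank, the share of enhancers with a TSS-distal peak was 95.3% (91.4 to 97.5%) in SEs of rank 1 to 193 and 71.0% (64.2 to 76.9%) in those of rank 773 to 965. It was 61.5% (54.4 to 68.2%) in TEs of rank 966 to 1152, 54.5% in those of rank 1153 to 1339, 59.9% in those of rank 1340 to 1526, 52.9% in those of rank 1527 to 1713, and 47.1% (40.0 to 54.2%) in those of rank 1714 to 1900. The order within the TEs was not steady, and the intervals of neighbouring rank groups overlapped. Within the TEs, 277 of the 468 better-ranked enhancers (59.2%) and 239 of the 467 lower-ranked ones (51.2%) held a member, a difference of 8.01 points (1.64 to 14.3; Fisher's exact test, adjusted p = 0.015). Length moved with rank, with medians of 33.3 kb and 26.0 kb. The rank difference was not called among the longer TEs alone (2.47 points, adjusted exact p = 0.609) or among the shorter ones alone (6.46 points, adjusted exact p = 0.273).

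The kind of ETS1 peak in a TE differed with the length of the TE. In the 234 shortest TEs (1.44 to 11.7 kb), 27.4% (22.04 to 33.4%) held a member and 86.8% (81.8 to 90.5%) a TSS-near peak. In the 234 longest (47.8 to 157 kb), 74.4% (68.4 to 79.5%) held a member and 60.7% (54.3 to 66.7%) a TSS-near peak. The intervals of the shortest and longest TEs did not overlap for either kind. Per length, the order was the other way, with 0.630 TSS-distal peaks per 10 kb in the shortest and 0.312 in the longest TEs. These rates count the whole length of a TE. Longer TEs have more room for a member, and the rule bars midpoints within 1500 bp of a TSS, which weighs most in short TEs. How much of the contrast by length follows from the rule was not tested. Over all 935 TEs, 368 held TSS-near peaks alone, 189 TSS-distal peaks alone, 327 both and 51 neither.

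**Figure D1:**
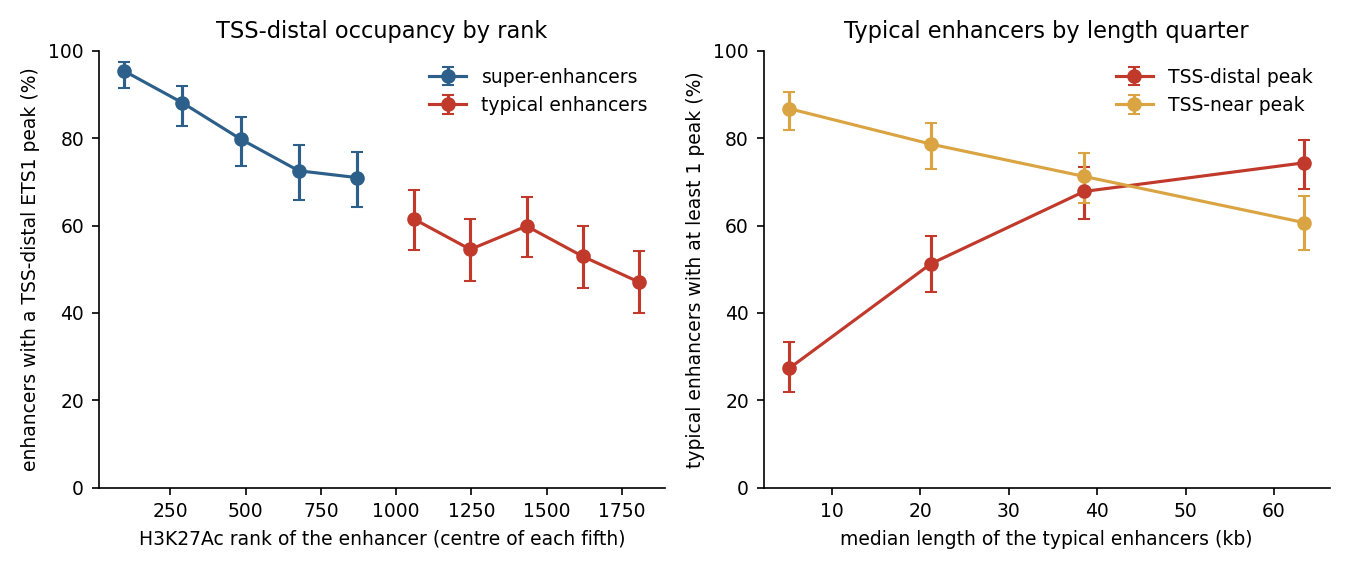
Share of enhancers with an ETS1 peak, in percent, with 95% Wilson intervals as bars. On the left, enhancers are grouped by SE ranks (blue) and TE ranks (red), and the share with a TSS-distal peak goes from 95.3% to 47.1%; on the right, the TEs are grouped by length, and the share with a TSS-distal peak (red) goes from 27.4% to 74.4% while that with a TSS-near peak (yellow) goes from 86.8% to 60.7%.

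A TE held 1.20 ± 1.54 TSS-distal peaks (mean ± SD over 935 TEs) and an SE 3.02 ± 2.97 (over 965 SEs). Of the TEs with a member, 227 had 1, 128 had 2, 77 had 3 and 46 had 4, and 2 TEs reached 9. Neighbouring members of a TE lay a median of 8.47 kb apart (quartiles 3.28 and 16.0 kb), and 101 of 609 such gaps (16.6%) were shorter than 2 kb. Members were spread evenly along their enhancers, with 233, 206, 225, 224 and 237 in consecutive stretches of equal length, and 1077 (95.7%) lay wholly inside. Another ETS1 peak lay within 10 kb of 69.7% of members, of 73.5% of SE peaks and of 40.7% of the other TSS-distal peaks.

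Members numbered 9 in 2 TEs and 8 in 4 TEs, and 5 of these 6 are described, ties being settled by rank, which leaves out the TE of rank 1412 near SOCS3 with 8. The TE of rank 1259 (chr3:184281880-184377743, 95.9 kb) began in EPHB3, an ephrin receptor, and held 9 members and no TSS-near peak. Of these, 2 broad peaks of 2719 and 2265 bp lay in the first intron of EPHB3, and the rest lay between genes up to 58.8 kb downstream of its TSS and toward MAGEF1. The TE of rank 1519 (chr16:85384286-85431499, 47.2 kb) also held 9 members. It lay over 200 kb from the nearest canonical TSS of a protein-coding gene, that of GSE1 or CIBAR2. The TSS of any transcript nearest to a member was 1750 to 38888 bp away, and the TE also held 1 TSS-near peak. It was the densest of the 5, with 1.91 members per 10 kb, and its members were 668 to 3340 bp wide.

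The TE of rank 969 (chr1:154377185-154452416, 75.2 kb) covered IL6R, the interleukin-6 receptor gene, and all of its 8 members lay in IL6R introns, 6.36 to 27.8 kb from the TSS. The TE of rank 1258 (chr20:49923106-50021929, 98.8 kb) reached the 3′ part of NFATC2, a calcium-regulated transcription factor gene, with 8 members 138 to 211 kb from its TSS. The TE of rank 1336 (chr12:123503953-123649545, 146 kb) held 8 members, all in introns of PITPNM2, a phosphatidylinositol transfer protein gene. Of the best-ranked TEs with a member, that of rank 966 lay in AKNAD1 and held 2, and that of rank 968 lay over CAVIN1, a caveola coat gene, and ATP6V0A1 and held 1. The best-ranked TEs with no ETS1 peak at all were those of rank 986 (nearest gene AKR1E2), 999 (in PAK2) and 1005 (nearest gene PDC), which were 33.3 to 82.6 kb long.

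**Figure D2:**
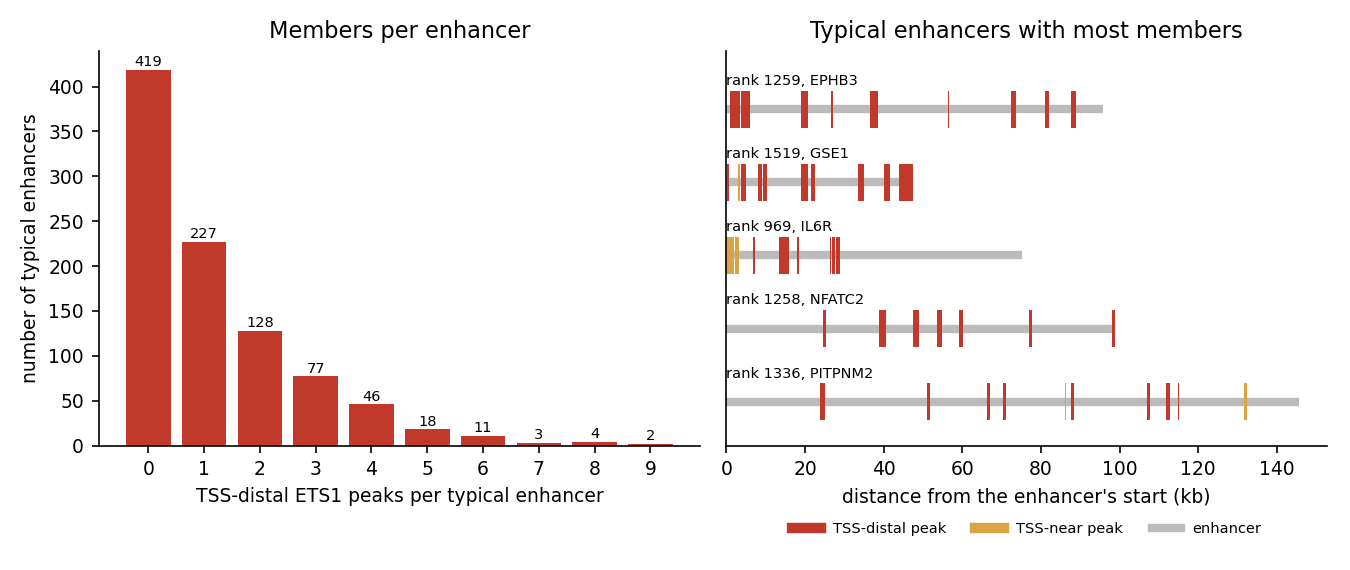
Left, number of TEs by the number of members they held, from 419 TEs with none to 2 with 9. Right, 5 of the 6 TEs with 8 or 9 members drawn to scale (grey, kb from the start of the enhancer, named by rank and nearest gene), with members in red and TSS-near peaks in yellow; members stand along most of each stretch, except in the IL6R enhancer, where they lie in the part nearest to its start.

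Members were narrower than TSS-near peaks, broader than the TSS-distal peaks outside these enhancers and slightly narrower than those in SEs. Members were 238 to 5524 bp wide with a median of 779 bp (quartiles 514 and 1222 bp), against 834 bp in SEs, 663 bp in the other TSS-distal peaks and 1573 bp in the TSS-near peaks of the same TEs. Peaks over 1000 bp made up 34.9% of members (32.2 to 37.8%), 39.1% of SE peaks, 24.1% of other TSS-distal peaks and 76.0% of TSS-near peaks. The differences were −4.17 points (−7.44 to −0.839; Fisher's exact test, adjusted p = 0.0153), 10.8 points (7.93 to 13.8, adjusted exact p = 4.44e-14) and −41.0 points (−44.7 to −37.1, adjusted exact p = 9.18e-83). The difference from SE peaks was not called for a width over 2000 bp (−1.90 points, adjusted exact p = 0.0561). The widest member, 5524 bp, had its midpoint 1837 bp upstream of the TSS of TSHZ3, a zinc-finger transcription factor gene, so that the peak itself reached across that TSS, as in 2 members in all. The next, 4630 bp, lay upstream of TTLL10. The third, 3996 bp, lay 58.1 kb upstream of EBF3.

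**Figure D3:**
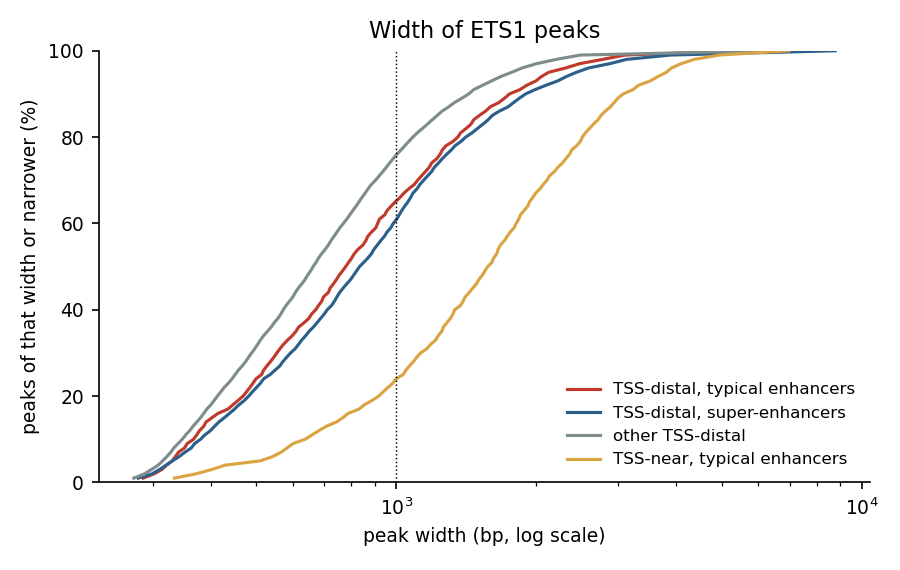
Cumulative share of peaks, in percent, by peak width in bp on a log scale, with 1000 bp as a dotted line. At their medians the members (red, 779 bp) stand between the other TSS-distal peaks (grey, 663 bp) and SE peaks (blue, 834 bp), some curves cross at the extremes, and TSS-near peaks (yellow, 1573 bp) lie to the right.

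By midpoint, as for every position inside or between genes given here, most members lay between genes. The midpoint was intergenic for 653 members (58.0%, 55.1 to 60.9%), in a later intron for 294 (26.1%), in the first intron for 152 (13.5%, 11.6 to 15.6%) and in an exon for 26 (2.31%), by the canonical transcripts of protein-coding genes. SE peaks were in first introns more often, at 19.97% (difference −6.45 points, −8.85 to −3.91; Fisher's exact test, adjusted p = 1.05e-05), and between genes less often, at 50.3% (difference 7.77 points, 4.34 to 11.2, adjusted exact p = 3.76e-05). Against the other TSS-distal peaks the order was the opposite. First introns held 10.4% of those (difference 3.09 points, 1.11 to 5.30, adjusted exact p = 0.00578) and intergenic sequence 61.5% (difference −3.45 points, −6.53 to −0.427, adjusted exact p = 0.0437). The first intron difference from the other TSS-distal peaks was not called in the first lines of the list (2.51 points, adjusted exact p = 0.107) or over 5000 bp from a TSS (2.62 points, adjusted exact p = 0.0508). With 1 peak per enhancer, the differences from SE peaks were not called (first intron −3.75 points, adjusted exact p = 0.187; intergenic 6.32 points, adjusted exact p = 0.0721).

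The median distance from a member to the nearest TSS of any transcript was 7993 bp (quartiles 3808 and 18023 bp). More than 50 kb from every TSS lay 73 members (6.49%, 5.19 to 8.08%), 3.47% of SE peaks (difference 3.02 points, 1.53 to 4.72; Fisher's exact test, adjusted p = 8.80e-05) and 7.78% of the other TSS-distal peaks (difference −1.29 points, −2.71 to 0.389, adjusted exact p = 0.136). Beyond 20 kb these calls changed places, with 2.099 points against SE peaks (adjusted exact p = 0.14) and −6.72 points against the others (adjusted exact p = 3.28e-06). At the edge of the rule, the 20 members with a midpoint 1505 to 1598 bp from a TSS had a median width of 867 bp, and the 18 excluded peaks of the same TEs at 1402 to 1500 bp had 863 bp. The TEs of rank 966 to 975 held 14 members, and the SEs of rank 956 to 965 held 18 TSS-distal peaks.

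The motifs in 600 bp windows at the midpoints were largely those of other distal ETS1 peaks. The searched words, on both strands, were the ETS core given above, CCGGAA for the high-affinity ETS site, the AP-1 words given above, AACCACA for RUNX, ACATTCC for TEAD, TGTTTAC and TGTTTGC for FOX, GGGCGG for the GC box bound by SP and KLF factors, and AACCGGTT, AACCTGTT and AACCAGTT for GRHL. The p63, NFI and CTCF motifs were searched as longer words with free bases inside, made of a pair of CATG cores for p63 and of the palindrome of TTGGC for NFI. The ETS core and the high-affinity site cannot share a GGAA, while AP-1 and ETS words can share bases, as in the FTO member above, and so can the GRHL and high-affinity ETS words. A match is a word in the sequence and not a bound site.

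Members held an ETS core in 84.9% of windows (82.7 to 86.9%), close to 85.3% in SE peaks and 86.5% in other TSS-distal peaks, and the share over all 26958 peaks was 79.2%. The differences were −0.403 points (−2.94 to 1.98; Fisher's exact test, adjusted p = 0.808) and −1.64 points (−3.96 to 0.462, adjusted exact p = 0.232). AP-1 motifs were in 38.9% of members (36.1 to 41.8%), 37.01% of SE peaks, 40.0% of other TSS-distal peaks and 25.2% of all peaks. These differences, 1.92 points (−1.40 to 5.29, adjusted exact p = 0.34) and −1.11 points (−4.10 to 1.94, adjusted exact p = 0.532), did not pass the test either. Members had 2.08 ± 1.58 ETS cores per window (mean ± SD, n = 1125), SE peaks 2.05 ± 1.53 and other TSS-distal peaks 2.07 ± 1.53.

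A few motifs differed between members and another distal set, and none of these calls held in every alternative. TEAD words, the sites of the DNA-binding partners of YAP, were in 9.16% of members (7.61 to 10.98%) and in 12.7% of SE peaks (difference −3.59 points, −5.59 to −1.43; Fisher's exact test, adjusted p = 0.00456). RUNX words were in 11.7% of members (9.98 to 13.7%) and in 15.4% of the other TSS-distal peaks (difference −3.69 points, −5.61 to −1.55, adjusted exact p = 0.00384). A RUNX word within 30 bp of an ETS core was in 2.22% and 3.97% (difference −1.75 points, −2.58 to −0.640, adjusted exact p = 0.00813). GC boxes were in 29.7% of members (27.1 to 32.4%), 24.8% of SE peaks (difference 4.88 points, 1.83 to 8.01, adjusted exact p = 0.00595) and 26.4% of other TSS-distal peaks (difference 3.32 points, 0.560 to 6.20, adjusted exact p = 0.0491). With 1 peak per enhancer the TEAD difference was −5.19 points (adjusted exact p = 0.0191), while those of RUNX (−3.80 points, adjusted exact p = 0.0614), of the ETS and RUNX pair (−1.06 points, adjusted exact p = 0.526) and of GC boxes (1.63 and 1.53 points, adjusted exact p = 0.713 and 0.689) were not called. Of 12 alternatives, the call held in 9 for TEAD, 7 for RUNX, 7 for the ETS and RUNX pair, and 5 and 4 for GC boxes against SE peaks and other TSS-distal peaks. In windows with a GC content under 50% the TEAD difference was −0.271 points (adjusted exact p = 1).

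Against the TSS-near peaks of the same TEs, members differed in most words. AP-1 was in 38.9% against 16.5% (difference 22.5 points, 18.8 to 26.1; Fisher's exact test, adjusted p = 4.05e-30) and the ETS core in 84.9% against 74.3% (10.6 points, 7.19 to 14.0, adjusted exact p = 1.23e-08). RUNX was in 11.7% against 6.21% (adjusted exact p = 5.32e-05), FOX in 17.9% against 11.3% (adjusted exact p = 0.000134), p63 in 3.20% against 0.985% (adjusted exact p = 0.00225), GRHL, a factor of epithelial barrier genes, in 4.36% against 1.87% (adjusted exact p = 0.00456) and TEAD in 9.16% against 6.21% (adjusted exact p = 0.0334). The promoter words were the reverse. GC boxes were in 29.7% against 68.8% (difference −39.1 points, −42.9 to −35.1, adjusted exact p = 6.16e-73) and the high-affinity ETS site in 12.5% against 28.1% (−15.5 points, −18.9 to −12.2, adjusted exact p = 2.27e-18). CTCF words, in 6.76% and 7.78%, did not pass the test (adjusted exact p = 0.463). NFI words were in 4 of 1125 members and 0 of 1015 TSS-near peaks, an interval that reaches 0.377% (adjusted exact p = 0.224).

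Base composition and width moved with these differences. The mean GC content was 53.4% ± 6.69 (SD, n = 1125) in members and 63.6% ± 8.70 (SD, n = 1015) in TSS-near peaks, and the median ratio of observed to expected CpG was 0.238 and 0.697. In windows under 50% GC the differences were 2.62 points for AP-1 (adjusted exact p = 0.994) and 2.06 points for the ETS core (adjusted exact p = 0.994). Of the 1015 TSS-near windows 952 had a GC content of 50% or more, so few entered that comparison. Among peaks up to 1000 bp wide they were 9.56 points for AP-1 (adjusted exact p = 0.0776) and 5.46 points for the ETS core (adjusted exact p = 0.194). When whole peaks were searched, the ETS core was less frequent in members, at 89.5% against 93.7% (−4.18 points, adjusted exact p = 0.00339). The sign also turned there for RUNX (−3.41 points), TEAD (−4.47), GRHL (−0.499) and FOX (−5.22). Of 12 alternatives, the call of the 600 bp windows held in 10 for AP-1, 9 for the ETS core and 9 for RUNX. It held in 8 for FOX, 7 for GRHL, 7 for p63 and 6 for TEAD. For AP-1 and the ETS core, windows of 50% GC or more were among the alternatives that kept the call. The parts of GC content and width in the differences were not tested further.

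**Figure D4:**
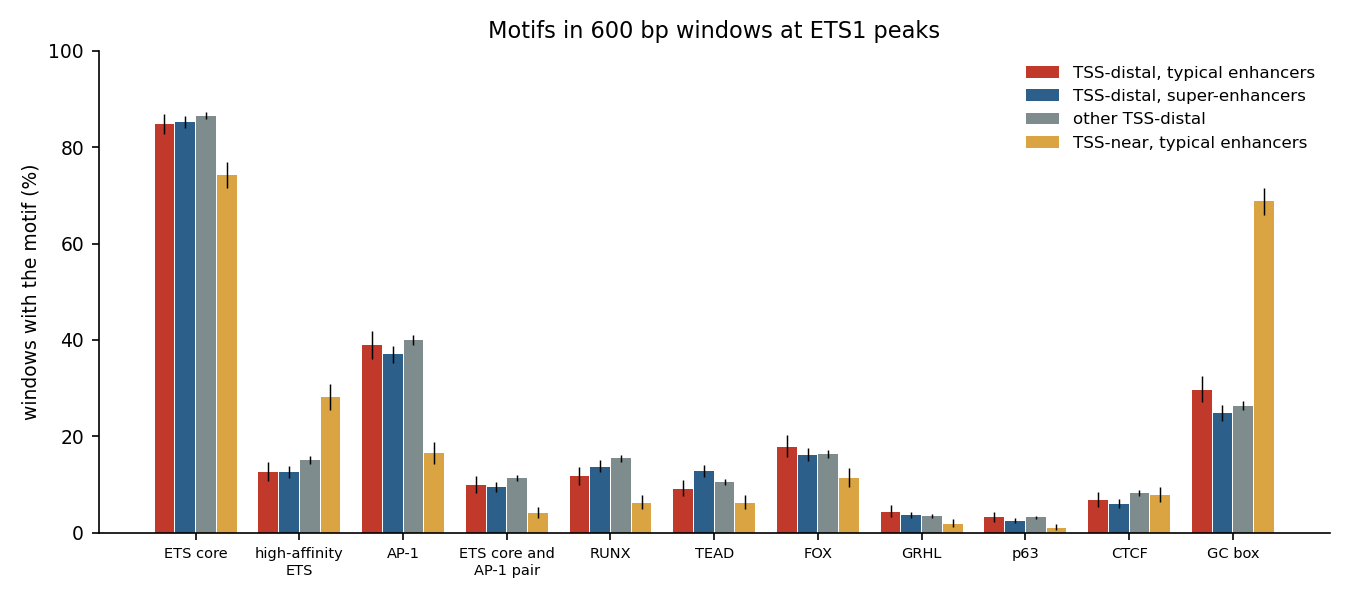
Share of 600 bp windows with each motif, in percent, in members (red), SE peaks (blue), other TSS-distal peaks (grey) and TSS-near peaks of the same TEs (yellow), with 95% Wilson intervals as black lines. The 3 TSS-distal sets stand at like heights, while the TSS-near set has fewer AP-1 words (16.5%) and more GC boxes (68.8%).

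Within members, ETS and AP-1 words gathered at the peak midpoint. ETS cores numbered 3.88 per kb within 100 bp of the midpoint and 2.48 per kb at 800 to 1000 bp, a ratio of 1.56. AP-1 words numbered 1.02 and 0.218 per kb, a ratio of 4.67, and high-affinity ETS sites had a ratio of 3.55. GC boxes had 2.33, RUNX 1.60 and TEAD 1.29, whereas p63 words, with 15 and 33 matches, had 0.909. In TSS-near peaks the ratio was 0.981 for the ETS core and 2.31 for AP-1, in SE peaks it was 1.39 and 3.71, and in other TSS-distal peaks it was 1.45 and 5.94. The AP-1 ratio was larger than the ETS core ratio in every set.

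**Figure D5:**
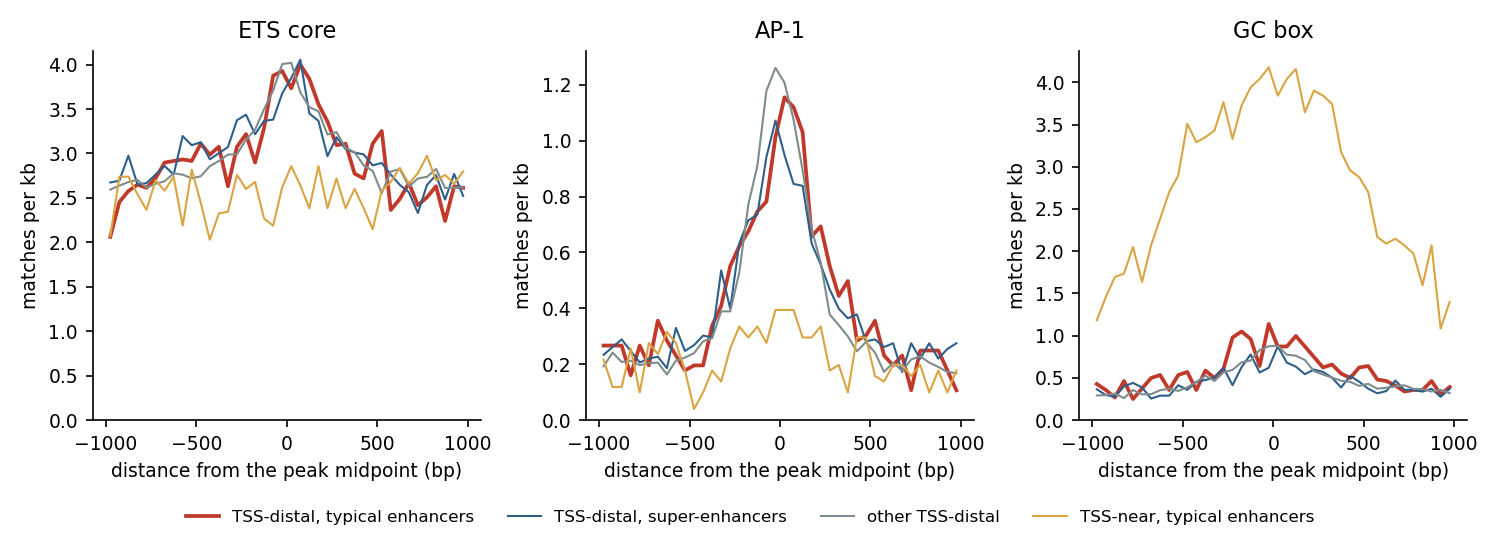
Matches per kb in bins of 50 bp against the distance from the peak midpoint in bp, for the ETS core, AP-1 and the GC box; members in red, SE peaks in blue, other TSS-distal peaks in grey, TSS-near peaks of the same TEs in yellow. ETS core and AP-1 words of the TSS-distal sets are densest near the midpoint, and GC boxes of the TSS-near set are denser at every distance.

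Of the 1125 members, 378 (33.6%, 30.9 to 36.4%) held both an ETS core and an AP-1 word, 577 (51.3%) an ETS core alone, 60 (5.33%) AP-1 alone and 110 (9.78%) neither. AP-1 was in 39.6% of members with an ETS core and in 35.3% of those without, in 36.8% and 38.1% of SE peaks, and in 39.6% and 42.8% of other TSS-distal peaks. The gap between the closest pair had a median of 62 bp over the 378 members. It was 30 bp or less in 111 of them, which is 9.87% of all members (8.26 to 11.7%), against 9.42% of SE peaks (difference 0.451 points, −1.51 to 2.59; Fisher's exact test, adjusted p = 0.732), 11.3% of other TSS-distal peaks (−1.47 points, −3.21 to 0.518, adjusted exact p = 0.232) and 4.04% of TSS-near peaks (5.83 points, 3.70 to 7.98, adjusted exact p = 9.53e-07). Among peaks that held both words, the share with a gap of up to 30 bp was 29.4% in members, 30.0% in SE peaks, 33.1% in other TSS-distal peaks and 30.1% in TSS-near peaks, and the median gap was 62 bp in members and 63 bp in TSS-near peaks. Of the 111, 48 had a gap of up to 10 bp, and in 5 the words touched or shared bases, as in the FTO member. In windows under 50% GC, where few TSS-near peaks lay, the difference from TSS-near peaks was −1.31 points (adjusted exact p = 0.994).

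The words that members held differed with peak width. Of the 283 narrowest (238 to 514 bp), 59.0% had an ETS core and 25.8% an AP-1 word within the central 200 bp. Of the 281 widest (1224 to 5524 bp), 41.6% and 12.1% had them. In the 600 bp windows the ETS core was in 87.3% of the narrowest and 82.2% of the widest, and AP-1 in 39.6, 46.1, 40.5 and 29.5% from the narrowest to the widest group, which is not a steady order. GC boxes were in 17.0% of the 600 bp windows of the narrowest and in 44.1% of those of the widest, and the mean GC content was 46.9% and 58.0%. These shares are descriptions, and the midpoint of a broad peak can lie farther from the bound site. The narrowest members stood later in the list, with a median line of 18324 against 8644 for the widest. What the order of the list means is not stated in the sources used here.

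A small group of members had CpG-rich sequence of the kind found at many promoters. A GC content of at least 50% with a ratio of observed to expected CpG of at least 0.6 was found in 64 members (5.69%, 4.48 to 7.20%), 3.16% of SE peaks (2.58 to 3.86%), 6.46% of other TSS-distal peaks and 57.9% of TSS-near peaks. Among these 64, GC boxes were in 87.5% (77.2 to 93.5%), the high-affinity ETS site in 32.8% (22.6 to 45.0%) and AP-1 in 15.6% (8.71 to 26.4%), against 26.2%, 11.3% and 40.3% in the other 1061 members. Their median width was 1315 bp against 753 bp. The members at TSHZ3, which reached its TSS, and upstream of TTLL10 were among them with CpG ratios of 0.857 and 0.866, and so were members near FOXC1 (0.880) and SOX2 (0.914). CpG content chose this group, so its GC-rich words are in part a matter of definition.

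An open scan of all 2080 6-mers, strands merged, found little that set members apart from other distal peaks. Against SE peaks 5 were called (0.24%), 4 of them higher in members, and none of the 48 with GGAA was among them. CGCTTC was in 14.9% of members and 9.90% of SE peaks (Fisher's exact test, adjusted p = 0.023), CGGCGA in 5.33% and 2.75%, CTATGA in 18.4% and 13.4%, CGGCAG in 24.3% and 18.6%, and CTGTGA in 40.4% and 47.3%. In 200 bp windows 0 were called. Against the other TSS-distal peaks 0 were called (0%) by the same test, with 137 at an unadjusted p under 0.05. Against TSS-near peaks 1733 were called (83.3%), of which 1151 were higher in members. Among the 604 6-mers with a CpG, 503 were lower in members and 0 higher. CGCCGC was in 9.60% of members and 55.2% of TSS-near peaks (adjusted exact p = 1.11e-117), and ATGATA in 12.3% and 2.96% (adjusted exact p = 9.48e-16).

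By position, members were nearest to 559 of 19812 protein-coding genes (2.82%), measured to the TSS of the canonical transcript. The nearest gene is only a place on the map and need not be a target, and for 72.5% of the 472 members inside a gene it was the host gene. The gene with most members was LY86, which encodes a partner of a Toll-like receptor homologue of B cells, with 10 in 2 TEs, followed by SHANK2, a scaffold protein gene, with 9 in 3 TEs. C9orf50, IL6R and NFATC2 had 8 each. EDN2, an endothelin gene, GLI2, a Hedgehog transcription factor gene, SOCS3, an inhibitor of cytokine signalling, NPY4R, PITPNM2 and ZNF703 had 7 each. Of 340 genes on 15 lists of regulators and epithelial genes, 29 (8.53%) were the nearest gene of a member and 70 (20.6%) that of a TSS-distal SE peak, against 2.82% and 4.84% of all protein-coding genes. The lists were chosen with earlier results known, and these counts were not tested. The lists do not hold every gene of a family. KRT74, ITGAE, HES5 and LFNG, which are on none of them, were nearest to members too.

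Transcription factors of squamous and other epithelia had the largest count, with 7 of 20 genes nearest to 20 members. KLF4, a factor of epidermal differentiation, was the nearest gene of 5 members in the TE of rank 1819, all 249 to 262 kb upstream and 500 to 858 bp wide. TFAP2C, which encodes AP-2 gamma, also had 5, in the TE of rank 1098 and 136 to 198 kb downstream of its TSS. ZNF750, a factor of terminal differentiation, had 4 in the TE of rank 1113, of which 1 lay in its first intron and 3 in introns of TBCD. SOX9, a factor of hair follicle stem cells, had 3 in a TE 682 to 716 kb upstream. KLF5, RUNX1 and SOX2 had 1 each, at 31.5, 2.30 and 16.3 kb. For 5 of the 7 genes (KLF4, TFAP2C, ZNF750, KLF5 and SOX2) no TSS-distal SE peak had the gene as nearest, while SOX9 had 3 and RUNX1 5. The same was true of most of the 29 listed genes with a member, so it does not set these factors apart. Of all 20 genes on this list, 5 (25%) were the nearest gene of a TSS-distal SE peak, against 20.6% of all listed genes.

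Of the Notch pathway, which drives keratinocytes into differentiation, 5 of 19 genes were nearest to 11 members. NOTCH1, the receptor often mutated in squamous carcinoma, had 5 in the TE of rank 1166. In that TE, 3 peaks lay in NOTCH1 introns 6.01 to 17.2 kb from the TSS and 2 lay 22.5 and 30.4 kb upstream, and all 5 were wider than 1000 bp. Only 2 of the 5 held an ETS core in the 600 bp window. The ligand genes DLL1 and JAG1 had 2 and 1, the latter 534 kb away, NRARP, a feedback inhibitor, had 2, and MAML2, a coactivator, had 1.

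Of the ETS family itself 4 of 28 genes were nearest to 6 members. ETV6, a repressor, had 2 in its first intron, 70.2 and 96.6 kb from the TSS, 1 of which is the sequence printed above. ELF4 had 2, 10.4 and 15.0 kb upstream, and ETS2 and ETV4 had 1 each. Of 14 AP-1 genes only JUN was on the map, with 3 members 97.6 to 139 kb upstream in the TE of rank 1371. The 2 nearest of these, 448 and 540 bp wide, are the JUN sequences above, and the third had an ETS core and no AP-1 word. FOXC1 was the only 1 of 11 EMT transcription factors, with 3 members, all with an ETS core and an AP-1 word, 2 of them in introns of GMDS.

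Signalling and cytokine genes were nearest to members as well. Of 17 ERK feedback genes DUSP5, a nuclear phosphatase of ERK, had 3 members 10.4 to 32.5 kb away. Of 32 TGF-beta genes SMAD7, an inhibitory SMAD, had 2, which lay 47.4 and 66.2 kb away. INHBA, an activin subunit, had 1 that lay 674 kb away, and LTBP2, a latent TGF-beta binding protein gene, had 1 at 27.8 kb. Of 24 NF-kappaB and cytokine genes, CSF2 (GM-CSF) had 3 members 13.1 to 29.9 kb downstream and 1111 to 1435 bp wide, and IL1B had 3 narrower ones of 315 to 839 bp, 20.7 to 24.9 kb downstream. Both CSF2 members farthest from the gene held an ETS core and an AP-1 word. Among genes of the epithelial surface and matrix, ITGA2 and LAMB1 of 31 integrin and laminin genes (6.45%) were nearest to a member. So were PERP of 22 cadherin and desmosome genes (4.55%) and KRT7 of 21 keratins (4.76%). The KRT7 peak was 2888 bp wide, with its midpoint in an exon. Of 26 matrix protease genes MMP17 (3.85%) had 3 members. The share over all protein-coding genes was 2.82%, and these small counts were not tested. None of 13 EGFR family genes, 26 Hippo genes and 36 WNT genes was the nearest gene of a member. In lists this short, a count of 0 is near the share of 2.82% over all protein-coding genes. For SE peaks, 3, 5 and 4 of them were the nearest gene (23.1, 19.2 and 11.1%), against 4.84% of all protein-coding genes. These counts were not tested either.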

How the data were processed

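The 3 ChIP-Seq samples of SCC25 cells used C20 (2 samples) or 501A (1 sample) antibodies to ETS1. Per the study's methods, reads were mapped to hg19 with Bowtie 1.1.1, keeping reads with a single locus, and peaks were called with MACS2 against input. Peaks shared across the samples by IDR, which keeps peaks whose ranks agree between replicates, form the 1 consensus list the authors deposited. SAMtools 1.3 merged the reads for the pooled calls. The file holds a chromosome, a start (counted from 0) and an end. It has no signal, score or value per sample, so depth could not be weighed. Because reads with several loci were removed, sites in repeats can be missing.

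Enhancers and their ranks came from the authors' ROSE catalogue of H3K27Ac, and TSSs (219838 positions), genes and sequence from GENCODE release 44 on GRCh37, whose nuclear chromosomes have the lengths of hg19. Peaks were sorted by the rule, scanned for 11 motifs, 2 motif pairs and all 6-mers, and compared with two-sided Fisher's exact tests (Benjamini-Hochberg over 39 motif, 3 width, 8 class, 3 occupancy and 2 distance tests, and over the 6-mers of a comparison; called at an adjusted p under 0.05). No filter on width or GC content was applied. Most genes, enhancers and peaks named were those of a rule: 5 TEs with most members (ties by rank), the best-ranked with and without a peak, the widest, narrowest and first members, listed genes nearest to a member, and 6-mers by odds ratio and p. The 3 members first in the list were 859 to 1870 bp wide and lay near ASB2, PHYHD1 and JADE2. The genes with most members of all, the TE near SOCS3, and the members near FOXC1 and SOX2 in the CpG-rich group were chosen once their values were known. So were the unlisted genes KRT74, ITGAE, HES5 and LFNG. The members and lists were chosen with earlier results of these data known. The code was tested on simulated data. Python 3.11.15, pandas 2.3.3, numpy 2.4.6, scipy 1.17.1, pysam 0.24.0 and matplotlib 3.10.9 were used.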

Additional observations from a re-analysis of the deposited data

How the results depend on the processing

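Alternatives covered the window, GC content, the first lines of the list, the overlap and TSS rules, 1 peak per enhancer, region length and chromosome 11, and, chosen after seeing the data, peaks up to 1000 bp wide. Of 561 recomputed values for 58 results, 473 kept their call, 72 lost it, 7 gained one, 8 changed sign with a call on either side and 1 count moved. In 32 of the 473, a difference called in neither setting changed sign. TSS-distal occupancy of TEs against SEs kept its call in all 7 alternatives (−28.8 to −13.8 points). Occupancy by any ETS1 peak kept its call in 6 of 7 (−9.05 to −3.80 points). The rank difference within TEs was 2.47 points in longer and 6.46 points in shorter TEs, neither called. The width difference from SE peaks was not called at 2000 bp (−1.90) or over 5000 bp from a TSS (−3.39). Against TSS-near peaks, whole peaks gave the opposite sign for the ETS core (−4.18), RUNX (−3.41), TEAD (−4.47), GRHL (−0.499), FOX (−5.22) and the ETS and RUNX pair (−0.445). Windows under 50% GC, where few TSS-near peaks lay, gave 2.06 for the ETS core and 2.62 for AP-1, neither called. They gave −1.31 for the ETS and AP-1 pair. Peaks up to 1000 bp gave 5.46 for the ETS core, 9.56 for AP-1 and 3.28 for their pair, none called, and −0.273 for FOX. For intergenic position, 1 peak per enhancer gave 6.32 against SE peaks, and the first lines of the list (−4.62) and peaks over 5000 bp from a TSS (−2.41) against other distal peaks, none called. Beyond 20 kb the distance differences were 2.099 against SE peaks, not called, and −6.72 against other distal peaks, called. With 200 bp windows 0 6-mers were called against SE peaks. The causes were not tested. No paired analysis was possible because the list has no value per sample, and for the same reason leaving out a sample was not run. Depth and the agreement of the antibodies limit which peaks are listed and could not be examined.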
